A study of Homo sapiens with 2 samples.

Results

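The 56 genes described here encode proteins of the DNA damage response and of DNA repair. They were listed by symbol, and a gene was counted as carrying a summit when a summit of the deposited list lay in the gene or within 1 kb of its outer limits in the RefSeq gene table (GRCh38.p14). All 56 symbols matched, of 19974 protein-coding genes on the chromosomes that hold summits (1 to 22 and X). The summit list belongs to a series of ChIP-seq (sequencing of DNA pulled down with an antibody from fixed chromatin). The antibody was against WSTF, the product of BAZ1B, and the cells were SW620, an established human colorectal cancer cell line. The series holds 2 samples, a library titled with the suffix IP and a library titled SW620 alone, each the only sample under its title, and both are labelled colon and SW620. The series title names a WSTF knockdown and the design text an overexpression, so it was not resolved whether WSTF was raised, lowered or unaltered in these cells, and neither sample carries a treatment label. A single list of 2697 summits was analysed, with no replicate list, no reads and an unknown depth. Its peak names do not say which sample or samples the peaks came from, and neither sample is labelled as input.

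WSTF is a subunit of ISWI chromatin remodelling complexes and is also known as a kinase that phosphorylates a tyrosine near the tail end of the histone variant H2AX, a mark that the phosphatases EYA1 and EYA3 remove. Double-strand breaks are sensed by the complex of MRE11, RAD50 and NBN, which activates the kinase ATM, while ATR with its partner ATRIP responds to exposed single-stranded DNA. Both kinases phosphorylate H2AX and the checkpoint kinases, and the breaks are then joined end to end or repaired from the sister copy by homologous recombination. Crosslinks are handled by the Fanconi anaemia pathway, mispaired bases by mismatch repair, and bulky or ultraviolet lesions by nucleotide excision repair. The data concern the position of the listed summits at the genes of these proteins, not WSTF at DNA lesions.

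A summit was found at 16 of the 56 genes (28.6%, exact Clopper-Pearson 95% interval 17.3 to 42.2), against 13.8% of all protein-coding genes (2765 of 19974). Counting the outer ends of genes alone, 15 of the 56 (26.8%, 15.8 to 40.3) carried one no more than 1 kb from an end, against 11.6% of all protein-coding genes. The 16 were H2AX, ATM, ATR, MDC1, RNF168, NBN, BARD1, RAD52, XRCC3, XRCC6, LIG4, LIG3, FANCC, XPA, ERCC5 and DDB2, with 1 summit each. Each interval covers counting error only, and the share was not tested, since some of these genes were already known to carry summits when the list was drawn up. Whether promoter activity or open chromatin moves with the presence of a summit was not tested, because the list holds no such measure.

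The promoters of H2AX, ATM, ATR, MDC1 and RNF168 are shown because these genes signal breaks. Their summits fell within 500 bp of a listed start, as in all 15 genes of the list with a summit and a listed start. Each run holds the 250 bases before the start listed by RefSeq (GRCh38.p14), read along the gene's strand, and the capitals mark every match to one of 9 motifs. These were the GC box (GGGCGG), the core of ETS factor sites (CCGGAA), the CCAAT box, the NRF1 site (GCGCATGCG), the cyclic AMP response element (TGACGTCA), the E2F site (TTTCGCGC or TTTGGCGC), the E-box (CACGTG), the YY1 site (AAGATGGCG) and the ZNF143 site (ACTACAATT), searched on both strands. Overlapping matches of the GC box run together in RNF168.
H2AX, chr11:119095466-119095715, minus strand: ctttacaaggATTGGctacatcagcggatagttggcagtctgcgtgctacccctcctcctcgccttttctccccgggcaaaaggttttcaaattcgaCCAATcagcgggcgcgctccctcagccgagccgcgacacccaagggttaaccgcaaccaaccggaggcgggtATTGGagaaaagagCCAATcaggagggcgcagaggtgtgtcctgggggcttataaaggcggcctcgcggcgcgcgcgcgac
ATM, chr11:108222817-108223066, plus strand: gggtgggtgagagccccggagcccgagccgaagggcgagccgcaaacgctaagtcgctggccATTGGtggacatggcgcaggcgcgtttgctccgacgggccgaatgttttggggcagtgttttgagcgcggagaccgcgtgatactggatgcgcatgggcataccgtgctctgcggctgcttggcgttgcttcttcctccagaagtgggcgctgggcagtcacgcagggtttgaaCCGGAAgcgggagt
ATR, chr3:142578734-142578983, minus strand: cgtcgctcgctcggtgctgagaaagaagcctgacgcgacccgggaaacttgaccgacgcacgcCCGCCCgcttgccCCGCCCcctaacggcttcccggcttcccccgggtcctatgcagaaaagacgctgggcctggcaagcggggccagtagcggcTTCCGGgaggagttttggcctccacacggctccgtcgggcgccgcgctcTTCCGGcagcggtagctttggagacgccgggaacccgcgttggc
MDC1, chr6:30717282-30717531, minus strand: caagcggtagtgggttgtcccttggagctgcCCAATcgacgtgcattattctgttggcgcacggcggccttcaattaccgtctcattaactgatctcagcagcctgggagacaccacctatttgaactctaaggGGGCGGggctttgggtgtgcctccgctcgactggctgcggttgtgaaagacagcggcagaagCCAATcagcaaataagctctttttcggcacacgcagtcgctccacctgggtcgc
RNF168, chr3:196503769-196504018, minus strand: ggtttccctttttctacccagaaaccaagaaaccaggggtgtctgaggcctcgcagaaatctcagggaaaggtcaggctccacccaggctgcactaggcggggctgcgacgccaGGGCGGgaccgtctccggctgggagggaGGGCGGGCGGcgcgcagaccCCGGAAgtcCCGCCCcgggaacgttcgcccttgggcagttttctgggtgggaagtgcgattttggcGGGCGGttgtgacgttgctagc

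Counted from the first base of each run, the summit stood at base 165 in ATM, at base 158 in ATR, at base 9 in MDC1 and at base 227 in RNF168. In ATR it was the first base of an ETS core match written on the opposite strand (TTCCGG), and in RNF168 a GC box began 2 bases after it. In ATM the nearest match was an ETS core 72 bases farther on, and in MDC1 a CCAAT box 23 bases farther on. The H2AX run held 4 CCAAT boxes and no other match, and the summit lay past its end, 40 bp inside the gene. In runs of the same length not shown here, RAD52 held no match. The nearest match lay 145 bases from the summit in ERCC5 and 1 base from it in DDB2, a GC box in both. A match is a description of the letters, and a summit is not placed to the base.

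H2AX, the histone variant that is phosphorylated around breaks, had a summit at chromosome 11 position 119095425, inside the gene (119093874 to 119095465) and 40 bp after its start. Its score was 2.83. The score is the authors' own, taken to be −log10 q, since the lowest value in the list is 1.31 and a q of 0.05 gives 1.30, and it ranks summits within this list only. The H2AX summit ranked 1996 of 2697, so it was among the weaker ones. The genes of the tyrosine phosphatases had no summit within 1 kb. The nearest to EYA3 lay 10244 bp beyond its far end and 127 bp from XKR8, and the nearest to EYA1 lay 4272122 bp away.

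Damage signalling was the group with the highest share, 4 of 9 genes (44.4%, 13.7 to 78.8), against 13.8% of all protein-coding genes. The intervals of all 9 groups overlapped, however. The order of the groups changed with the setting. With summits inside genes alone, damage signalling had 0 of 9 and end joining 2 of 5, against 8.15% of all protein-coding genes. With scores of at least 5, damage signalling had 1 of 9 and homologous recombination 2 of 10, against 3.71%. ATM, the kinase activated by double-strand breaks, had a summit with a score of 4.68 at chromosome 11 position 108222981, 86 bp before its start. ATR, the kinase that responds to stalled replication, had one with a score of 5.10 at chromosome 3 position 142578826, 93 bp before its start. These are the apical kinases of the 2 main signalling branches, and their summits ranked 805 and 656.

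RNF168, a ubiquitin ligase that amplifies the ubiquitin signal on histones beside a break, had a summit 24 bp before its start with a score of 4.90 (chromosome 3 position 196503792). MDC1, the adaptor that binds phosphorylated H2AX, had a weaker one 242 bp before its start with a score of 2.55 (chromosome 6 position 30717523). The rest of the group had none within 1 kb. These were ATRIP, the partner of ATR, the effector kinases CHEK1 and CHEK2, the ubiquitin ligase RNF8 and the adaptor TP53BP1, and their nearest summits lay between 145320 bp (ATRIP) and 916684 bp (TP53BP1) away. In the pairs ATR and ATRIP, and RNF168 and RNF8, 1 partner thus had a summit and the other had none. A gene without a call is the usual case, as 13.8% of all protein-coding genes had a summit.

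**Figure D1:**
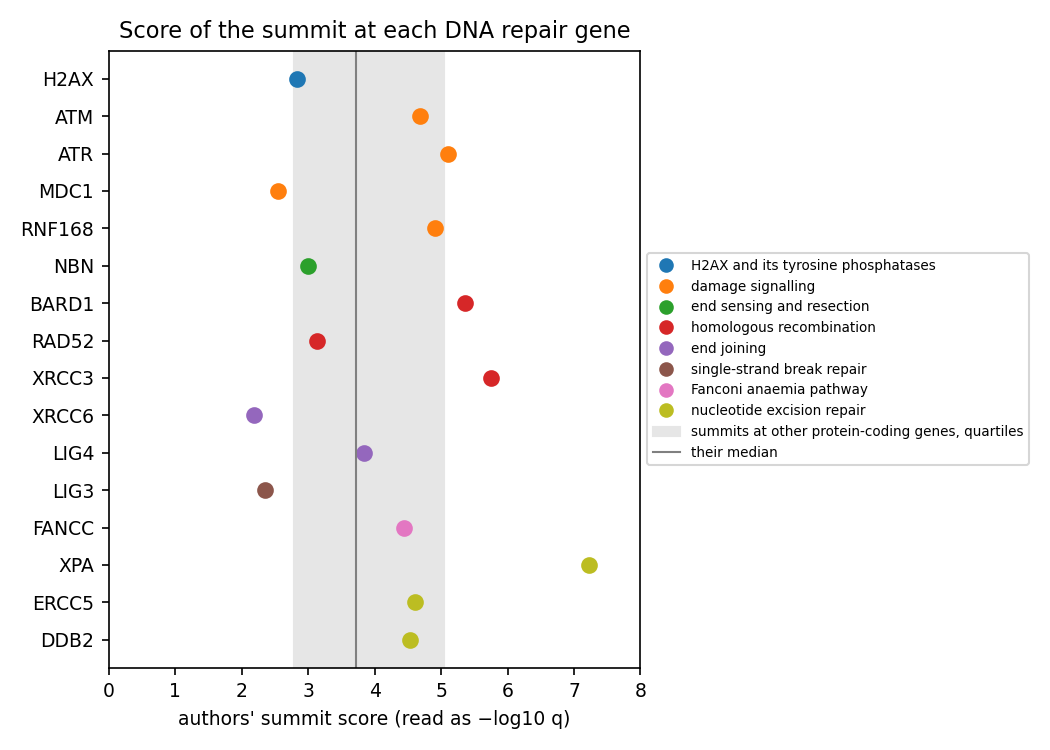
Authors' summit score (x axis, read as −log10 q) of the 1 summit at each of the 16 repair genes, coloured by pathway group; the grey band spans the quartiles (2.78 to 5.04) and the line marks the median (3.72) of the summits at other protein-coding genes. XPA (7.23) is highest and XRCC6 (2.19) lowest, and 9 genes lie inside the band.

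Of the break-sensing and resection genes, NBN alone had a summit. NBN is the subunit that recruits ATM, and its summit scored 3.00 and lay inside the gene at chromosome 8 position 89984415, 252 bp from an outer end. Its partners MRE11 and RAD50 had their nearest summits 32027 and 146177 bp away, and RBBP8, a resection factor, 1209217 bp away.

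Homologous recombination had 3 of 10 genes with a summit (30.0%, 6.67 to 65.2). The share of all protein-coding genes, 13.8%, lay inside that interval. BARD1, the partner of BRCA1 in a ubiquitin ligase, had one with a score of 5.37 at chromosome 2 position 214810022, 339 bp before its start. XRCC3, another recombination protein, had one with a score of 5.76 at chromosome 14 position 103715710, 259 bp before its start. The 2 summits ranked 500 and 427, above the median of the list, and were the group's only ones with a score of at least 5. Each lay closer to the start of another gene, SNHG31 at BARD1 (207 bp) and ZFYVE21 at XRCC3 (100 bp).

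RAD52, a strand-annealing protein, had a weaker summit with a score of 3.13 at chromosome 12 position 949822. It was the only one of the 16 away from the outer ends of its gene, at 38086 bp from the nearer end, but it lay 128 bp before a second start that RefSeq lists inside the gene. BRCA1 and BRCA2, the mediators of recombination, had none, with the nearest summits 622027 and 138711 bp away. PALB2, which links them, had its nearest at 45922 bp. The recombination genes RAD51C, RAD51D and XRCC2 and the motor protein gene RAD54L were also without one, at 111657 bp (RAD51D) to 1447711 bp (RAD54L). The summit nearest to RAD51D was the LIG3 summit.

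End joining had 2 of 5 genes with a summit (40.0%, 5.27 to 85.3), against 13.8% of all protein-coding genes. XRCC6, a subunit of the Ku ring that binds free ends, had a summit 203 bp after its start with a score of 2.19 (chromosome 22 position 41621498), the lowest of the 16. LIG4, the ligase of the pathway, had one 145 bp after its start with a score of 3.83 (chromosome 13 position 108218204). XRCC5, the other Ku subunit, XRCC4, the partner of LIG4, and PRKDC, the kinase recruited by Ku, had none. Their nearest summits lay 1299326, 1105182 and 48045 bp away.

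In single-strand break repair, LIG3 was the 1 gene of 4 with a summit. LIG3, the ligase bound by XRCC1, had it 52 bp after its start with a score of 2.36 (chromosome 17 position 34980564). The break sensors PARP1 and PARP2 and the scaffold XRCC1 had none, at 239016 bp (PARP1) to 2231352 bp (PARP2).

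The Fanconi anaemia pathway had 1 of 9 genes with a summit (11.1%, 0.281 to 48.2), near the 13.8% of all protein-coding genes. FANCC, of the core complex, had it 61 bp after a listed start and 516 bp inside the outer end, with a score of 4.44 (chromosome 9 position 95317193). FANCE, also of the core complex, lay just beyond the window. Its nearest summit stood 1233 bp past the end of the gene, scored 5.21, and lay 66 bp from RPL10A, a ribosomal protein gene. FANCI, which the pathway ubiquitylates together with FANCD2, had its nearest summit 17436 bp away, 129 bp from POLG. FANCA, FANCD2, FANCF, FANCG, FANCL and FANCM had theirs 56852 bp (FANCA) to 2935654 bp (FANCL) away. BARD1, at 339 bp outside its gene, was the farthest of the genes inside the window.

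Neither mismatch repair gene had a summit, and with 2 genes the interval reached 84.2%. MSH6, which recognises mispairs, had its nearest summit 504654 bp away, and PMS2, the nicking subunit, 189689 bp away.

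Nucleotide excision repair had 3 of 10 genes with a summit (30.0%, 6.67 to 65.2), an interval that also held the 13.8% of all protein-coding genes. XPA, which verifies the lesion, had the highest score of the 16, 7.23, at chromosome 9 position 97697288, 52 bp after its start. It ranked 173 in the list. ERCC5, the nuclease that cuts on one side of the lesion, had a summit 86 bp before its start with a score of 4.60 (chromosome 13 position 102845946). DDB2, a sensor of ultraviolet damage, had one with a score of 4.53 at chromosome 11 position 47214885, 431 bp inside its outer end and 89 bp before a second listed start. Its partner DDB1 had none, at 137833 bp. The lesion sensor XPC, the TFIIH helicases ERCC2 and ERCC3, the nuclease pair ERCC1 and ERCC4 and the transcription-coupled factor ERCC6 had none either, at 55093 bp (ERCC1) to 1103752 bp (ERCC4).

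**Figure D2:**
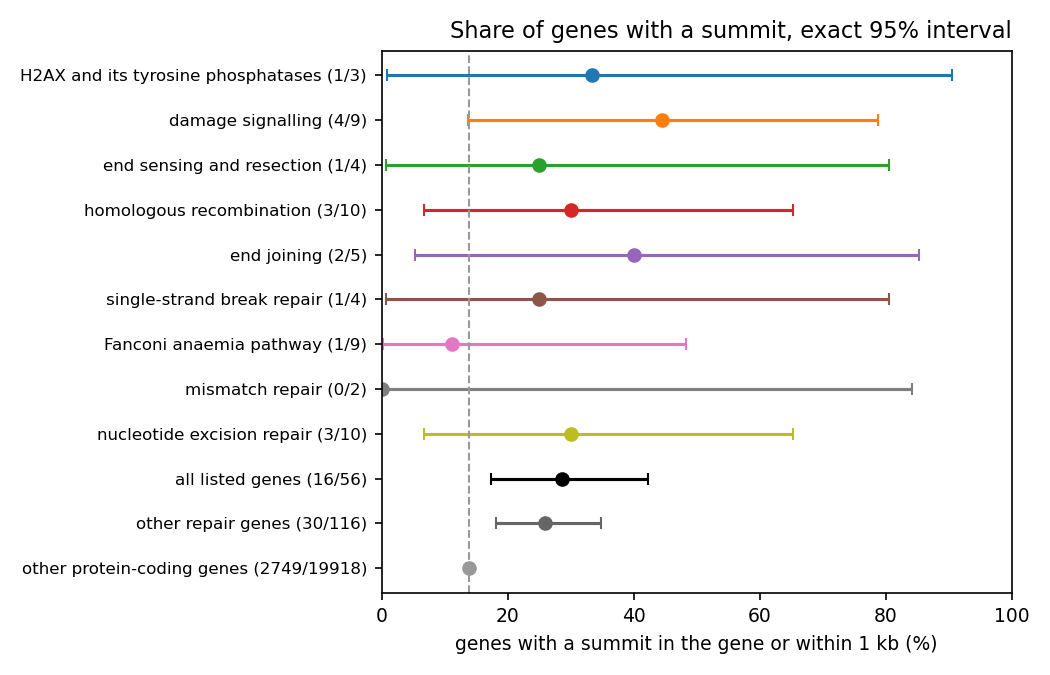
Percentage of genes that carry a summit, inside them or up to 1 kb away (x axis), for each pathway group, all 56 listed repair genes, 116 other repair genes and the other protein-coding genes; bars are exact 95% intervals and the dashed line marks the other protein-coding genes. Damage signalling is at 44.4% and mismatch repair at 0 of 2, and all group intervals overlap. The order of the groups changes with the window and the score minimum. With summits inside genes alone, damage signalling has 0 of 9, against 8.15% of all protein-coding genes.

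The scores of the 16 summits had a median of 4.49 and quartiles of 2.95 and 4.95, against a median of 3.72 and quartiles of 2.78 and 5.04 for the 2419 summits at other protein-coding genes. Of the 16, 10 (62.5%) reached the median of the whole list, against 51.4% at other protein-coding genes, and 4 scored at least 5, against 25.7%. Their ranks among the 2697 summits ran from 173 (XPA) to 2410 (XRCC6).

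For the 15 genes whose start is in the RefSeq promoter table, the summit was within 500 bp of a listed start in all 15 (78.2 to 100%), at a median distance of 89 bp. Among the other protein-coding genes with a summit and a listed start, 1868 of 2301 (81.2%, 79.5 to 82.8) had it within 500 bp, at a median of 175 bp. The summit was upstream of the start in 9 of the 15 repair genes and in 53.2% of the others. The difference in distance was not tested. No other summit lay within 10 kb of any of the 16, and the closest neighbour, at H2AX, was 10425 bp away.

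**Figure D3:**
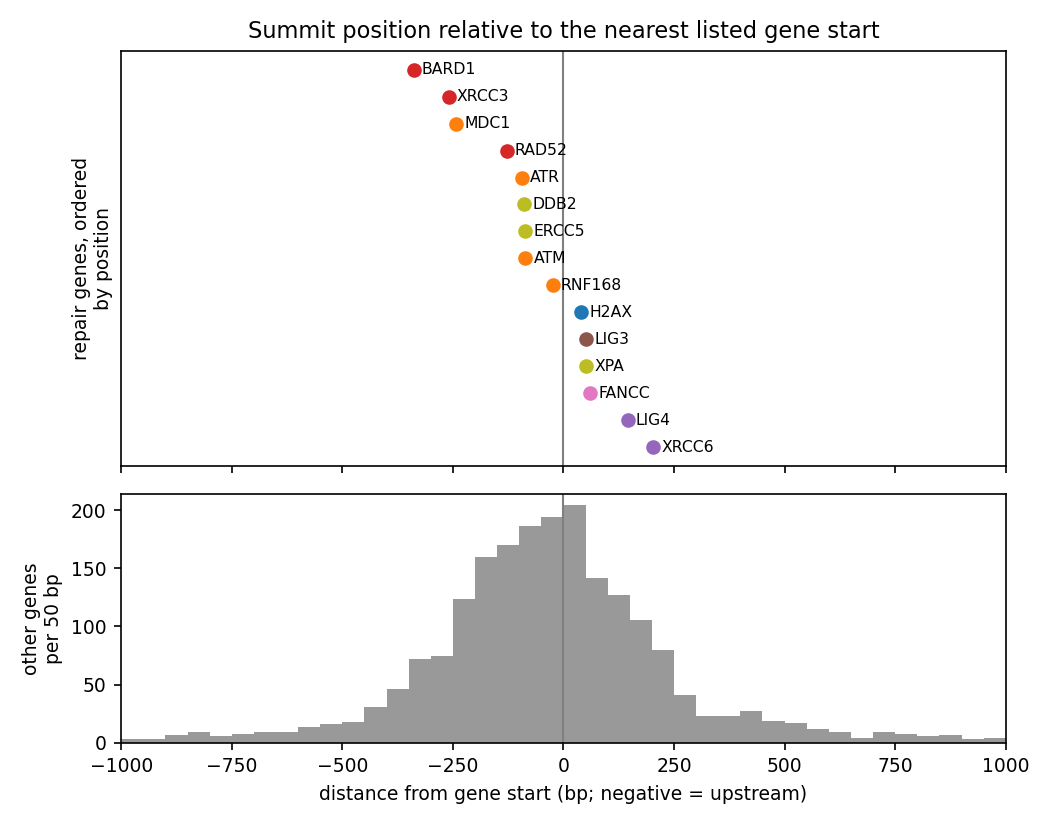
Distance of the summit from the nearest listed gene start (x axis, bp, negative upstream) for 15 repair genes, 1 point each (above), and as a count per 50 bp for other protein-coding genes (below). The repair gene summits run from 339 bp before the start (BARD1) to 203 bp after it (XRCC6), within the main peak of the other genes.

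Some of these starts face another gene. The summit was also within 1 kb of an outer end of another protein-coding gene at 4 of the 16 genes (interval 7.27 to 52.4%), against 31.5% of the other genes with a summit. At ATM it lay between the starts of ATM and NPAT, a regulator of histone gene transcription, at 86 bp from the first and 343 bp from the second. At XRCC3 it lay nearer to the start of ZFYVE21 (100 bp) than to that of XRCC3 (259 bp), so it cannot be assigned to either. At LIG4 the start of ABHD13 was 188 bp away, and at XRCC6 that of DESI1 was 455 bp away. At BARD1 the start of the lncRNA SNHG31 was 207 bp away, closer than that of BARD1.

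The list was not chosen on such a facing partner. The summit shares below are still shaped by the choice of genes, some of which were already known to carry summits. Among the 51 listed genes with a known start, 18 (35.3%) had an opposite-strand start of another protein-coding gene within 1 kb of their outermost start, against 13.6% of the 15762 other genes. In this class 4 of 18 repair genes (22.2%, 6.41 to 47.6) had a summit, against 23.9% (22.1 to 25.8) of the others. Without a facing start, 11 of 33 repair genes (33.3%, 17.96 to 51.8) had one, against 13.1% (12.6 to 13.7). The repair genes' share was thus close to that of the other genes where 2 starts face each other, and higher where none does. The intervals of the 2 repair classes overlapped widely, however, and the classes were not tested against each other. The facing genes without a summit included BRCA1, BRCA2, CHEK2, TP53BP1 and MRE11.

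The share of genes with a summit moved with promoter base composition in the whole genome. Over the 300 bases from 250 before to 50 after the outermost start, it was 3.88% of other genes below 50% G+C, 9.76% from 50 to 60%, 16.7% from 60 to 70% and 23.5% at 70% and above. The repair genes had a summit at 1 of 2, 2 of 12, 9 of 27 and 3 of 10 in the same classes. The 1 of 2 is RAD52. At RAD52, DDB2 and FANCC the summit lay at another listed start than the outermost one, so the promoter counted here is not the one at the summit. Weighting the shares of the other genes by the repair genes' composition gave 15.9%, against 29.4% of the repair genes (15 of 51) and 14.6% of the other genes (2301 of 15762) in the same promoter table. Weighting all protein-coding genes by the repair genes' chromosomes gave 15.0%, against 28.6% of the list and 13.8% of all genes. Neither gap was tested, since some listed genes were already known to carry summits when the list was drawn up.

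Within the list, and again at the outermost start, the base composition of genes with and without a summit overlapped widely. Median G+C was 64.3% (range 43.0 to 73.7, 15 genes) in the genes with a summit and 63.2% (48.0 to 78.0, 36 genes) in those without. Median CpG counts were 26.0 and 26.5. In the other protein-coding genes the medians were 68.0% G+C with a summit and 61.7% without. GC boxes were found in 10 of 15 promoters of repair genes with a summit and in 28 of 36 without, and ETS cores in 5 of 15 and 15 of 36. Across all 15813 protein-coding promoters of this length, 58.3% held a GC box, 22.7% an ETS core and 36.4% a CCAAT box. Among the other protein-coding genes, GC boxes were in 75.4% of promoters with a summit and 55.3% without. ETS cores were in 29.7% and 21.5% of these, and CCAAT boxes in 35.8% and 36.4%. The CCAAT box was in 6 of 15 repair promoters with a summit and in 17 of 36 without.

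The rarer motifs were in few repair promoters. E2F matches were in 2 of 15 with a summit and 0 of 36 without, against 1.66% of all promoters. The E-box was in 2 of 15 and 2 of 36 (8.82% of all), the cyclic AMP response element in 0 of 15 and 4 of 36 (2.56%), and NRF1 in 1 of 15 and 0 of 36 (2.77%). No repair promoter held the YY1 or ZNF143 letters searched, which were in 2.69% and 0.462% of all promoters. With the start nearest to the summit in place of the outermost one, the 15 promoters had a median G+C of 64.3% (57.3 to 78.7). Of these 15, 11 held a GC box, 5 an ETS core, 5 a CCAAT box, 1 an E2F match, 1 an E-box and 1 the NRF1 site.

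**Figure D4:**
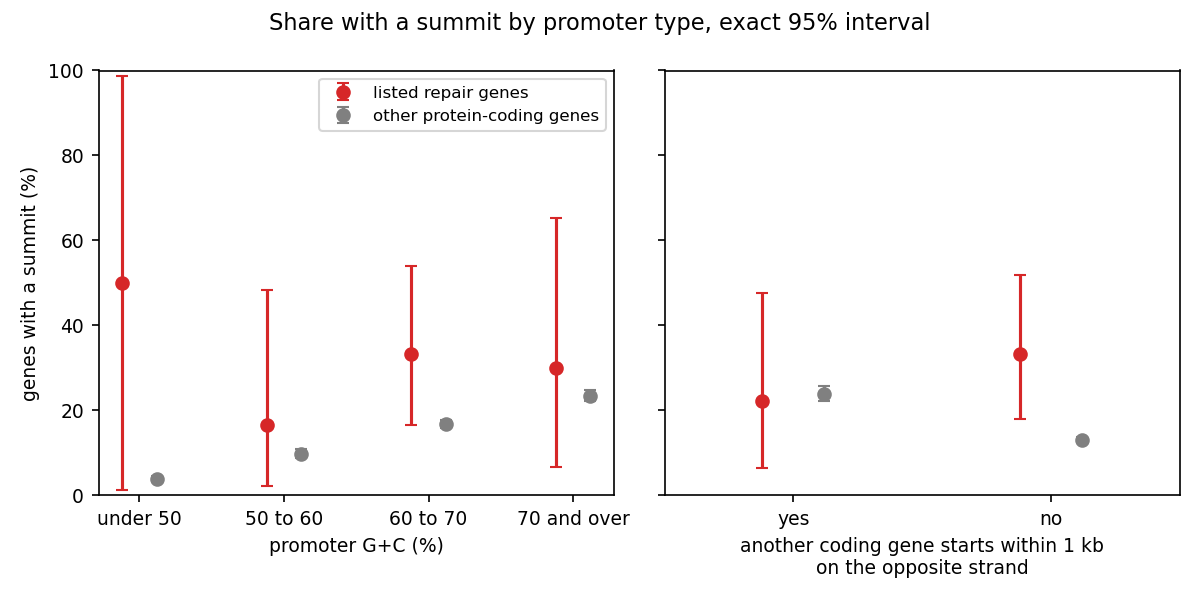
Share of genes with a summit (y axis, percent) by promoter G+C class (left) and by whether another protein-coding gene starts within 1 kb on the opposite strand (right), for listed repair genes and other protein-coding genes, with exact 95% intervals. Without a facing start the repair genes stand at 33.3% and the others at 13.1%, and with one they stand at 22.2% and 23.9%.

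The 40 repair genes without a summit were mostly far from any. The median distance to the nearest summit was 220300 bp, with 8 (20.0%) within 100 kb and 1 (2.50%) within 10 kb, against a median of 265354 bp, 29.3% and 4.61% for the 17169 other protein-coding genes without one. Gene length was similar in the groups of the list, at a median of 38867 bp with a summit and 45809 bp without, and the corresponding medians of the other genes were 29246 and 23346 bp. With the depth unknown, a gene without a call cannot be taken as unbound.

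**Figure D5:**
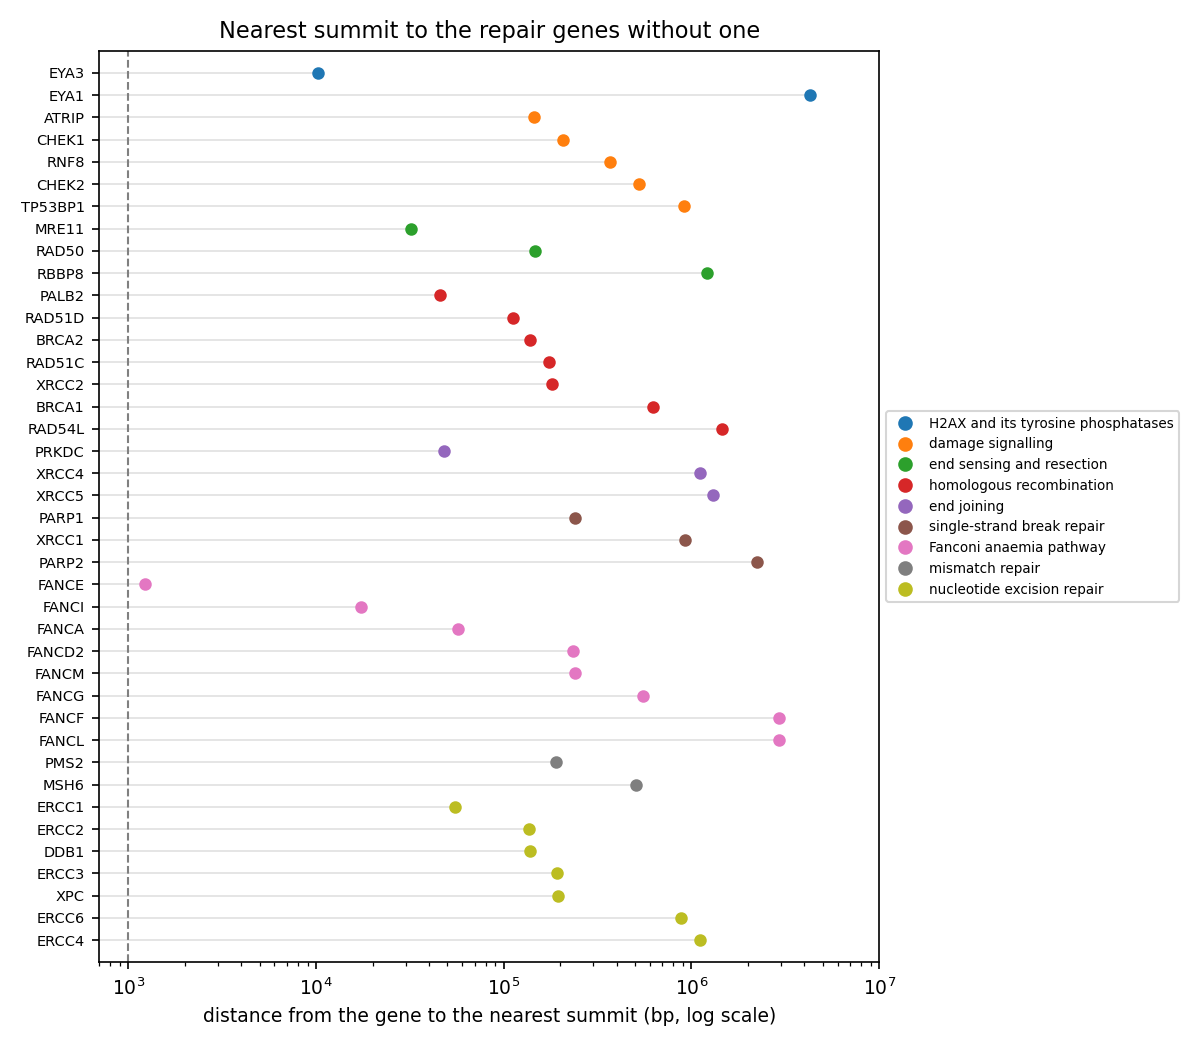
Distance from each of the 40 repair genes without a summit to the nearest summit on its chromosome (x axis, bp, log scale), coloured by pathway group, with the 1 kb window as a dashed line. FANCE, at 1233 bp, is closest to the window and EYA1, at 4272122 bp, is farthest.

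Other genes of the same pathways were described from a list of 116 symbols drawn up by pathway. A summit was found at 30 of them (25.9%, 18.2 to 34.8), against 13.8% of all protein-coding genes. This list too was drawn up with earlier results of these data known, so it is no independent check and its share was not tested. With all summits and the 1 kb window, damage signalling had 10 of 26 genes (38.5%, 20.2 to 59.4) and base excision and single-strand break repair 3 of 20 (15.0%, 3.21 to 37.9). The highest scores were at MUS81, a nuclease that cuts recombination intermediates (11.9, rank 22), and KAT5, an acetyltransferase that activates ATM (9.12, rank 68). Both exceeded XPA.

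The other signalling genes with a summit were RAD17 (score 3.89), a loader of the checkpoint clamp, WEE1 (2.88), PPM1D (4.04), TTI1 (4.10), TIMELESS (1.34), UIMC1 (1.75), ABRAXAS1 (3.75), BABAM2 (1.33) and UBE2N (5.20), the conjugating enzyme that works with RNF8. UIMC1, ABRAXAS1 and BABAM2 encode subunits of the BRCA1-A complex, and 2 of their 3 scores were near the floor of the list. In recombination GEN1 and SWI5 scored 4.30, RMI1 3.13 and TOP3A 1.95. In end joining PAXIP1 scored 3.74, SHLD2 2.88 and MAD2L2 1.95.

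In the Fanconi group FANCB scored 5.04, CENPS 2.87 and CENPX, with 2 summits, 3.58 and 2.51. In excision repair GTF2H1, a TFIIH subunit, scored 6.22, CUL4A, the scaffold of the ligase that holds DDB1 and DDB2, 5.29, UVSSA 4.67 and RBX1 4.48. PMS1, of mismatch repair, scored 5.72. The remaining genes were TDP1 (4.44), APTX (3.24), MPG (3.02) and REV1 (3.02). At 9 of these 30 genes the summit lay closer to a start or outer end of another protein-coding gene than to one of the repair gene, as it did at XRCC3 alone among the 16. These were RAD17, BABAM2, TOP3A, RMI1, SWI5, SHLD2, PMS1, APTX and GTF2H1, and their summits cannot be assigned to either gene. At RMI1 the summit was 2 bp from the start of HNRNPK and 188 bp from its own, and at PMS1 it was 52 bp from the start of ORMDL1 and 163 bp from its own.

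Taking stronger summits alone lowered both the count of repair genes and that of all genes. With scores at or above the median of the list, 10 of the 56 genes (17.9%) kept a summit, against 7.34% of all protein-coding genes. With scores of at least 5 these were BARD1, ATR, XPA and XRCC3 (7.14%, against 3.71%). Among the highest-scoring 10% of summits, XPA was the only listed gene (1.79%, against 1.44%), a share near that of all genes.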

How the data were processed

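The series measured WSTF-bound DNA in SW620 cells by ChIP-seq. Formaldehyde-fixed, sonicated chromatin was immunoprecipitated, per the labels' protocols. MACS2 2.2.7.1, Bowtie2 2.4.4 and Trimmomatic 0.39 are listed with build hg38, per the submitters' processing notes, and the design text names input DNA as the control for peak calling. The sources used here do not say whether replicates were pooled or which sample the peaks came from. The deposited list gives a 1-base summit per peak and a score, taken as −log10 of the q-value; the authors' score was used only within the list. It holds no counts, so depth is unknown.

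Summits were compared, in 1-based coordinates, with RefSeq gene limits and listed starts (GRCh38.p14, the same chromosome coordinates as hg38) using Python 3.11.15, pandas 2.3.3 and scipy 1.17.1. Of the 56 genes, 51 were in the promoter table. Shares carry exact 95% Clopper-Pearson intervals for counting error only. Counting was tested on simulated summits. No tests were run, since there is 1 list. Windows of 0 bp to 10 kb and score thresholds were tried. The genes and lists were chosen with earlier results of these data known. Named genes were all with a summit, all with one within 10 kb, and the rest by pathway.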

Additional observations from a re-analysis of the deposited data

How the results depend on the processing

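Of 45 alternative values computed for the main counts, shares and medians, 27 stayed within the set limits (1.5 times for counts, the 95% interval for the share of all genes, 1 SD between genes for medians) and 18 did not. With summits inside genes alone, 9 of the 56 repair genes, 18 of the 116 other repair genes and 8.15% of all protein-coding genes had a summit. With scores at or above the median these were 10, 17 and 7.34%, with scores of at least 5 they were 4, 7 and 3.71%, and with the highest-scoring 10% of summits they were 1, 2 and 1.44%. These settings use fewer summits or less sequence by construction. The pathway groups with a summit, 8 of 9, were 5, 3 and 1 under the same score settings. The share of all genes was 13.3% with a window of 500 bp, 15.6% with 5 kb and 17.8% with 10 kb, where the repair genes stayed at 16 or 17. Chromosome 11 held 7 of the 56 genes, 3 of them with a summit, and 20.9% of its protein-coding genes had one. Leaving it out, a choice made after seeing the data, left 13 genes with a summit. Assigning each summit to its nearest protein-coding gene left 15 of the 56, without XRCC3. The share of all genes is not given for either setting, so these counts cannot be set against 13.8%. No paired analysis was possible because there is 1 list and no replicate.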
